A study of Mus musculus with 8 samples.

Results

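The SMAD transcription factors and their corepressors Ski and Skil were examined for N6-methyladenosine (m6A) in vascular smooth muscle cells (VSMCs) cultured from mouse aorta. The 10 genes were the receptor SMADs Smad1, Smad2, Smad3, Smad5 and Smad9, the common SMAD Smad4, the inhibitory SMADs Smad6 and Smad7, and the corepressors Ski and Skil, out of 55450 annotated genes. A gene was given the peak summits that fell in any of its annotated exons (GENCODE M21 on GRCm38), which assigned 109 of 42744 summits to these genes. The receptor SMADs were set against the inhibitory SMADs, and both were followed across control and Mettl14-knockdown cells.

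The study asked which VSMC transcripts carry m6A and how the mark changes when the methyltransferase complex loses METTL14, the subunit that helps bind the RNA substrate. VSMCs had been grown out of the descending aorta of C57BL/6J mice of 8 to 12 weeks after the adventitia was digested away and the endothelium was scraped off. Both groups were transduced with lentivirus and were collected 48 hours after the virus was replaced by fresh medium. The shCTR cells expressed a nontargeting hairpin directed at a plant microRNA, and the shMettl14 cells expressed a hairpin against Mettl14. In m6A-RIP-seq, RNA is broken into short fragments, those carrying m6A are pulled down with an antibody (IP), and the reads are set against RNA that was not pulled down (input). There were 4 IP and 4 input samples, replicates A and B of each group and kind, and nothing in the labels states whether the replicates were separate cultures, so their spread may be technical. Each IP sample has its own peak list, called against its own input. These lists, shCTR A and B and shMettl14 A and B, were the unit of comparison.

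SMAD proteins carry signals of the TGF-β family from the cell surface to the nucleus. Activated receptors phosphorylate the receptor SMADs, Smad1, Smad5 and Smad9 mostly downstream of bone morphogenetic proteins and Smad2 and Smad3 downstream of TGF-β and activins. The phosphorylated proteins pair with Smad4 and regulate genes. Smad6 and Smad7 are induced by the pathway and feed back on it by competing for receptors and recruiting ubiquitin ligases, while Ski and its relative Skil (SnoN) hold SMAD complexes in a repressed state. In the artery wall the pathway takes part in smooth muscle differentiation and in the synthesis of extracellular matrix.

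m6A is written at adenosines within the motif DRACH (D standing for any base but C, R for a purine, H for any base but G). The DRACH site shown is the nearest to the median position of the strongest summits of the 4 lists, in each gene's strongest region. It is given for 5 of the 7 genes with summits in every list. These are receptor SMADs and corepressors, so the sequences do not allow a comparison with the inhibitory SMADs. The motif was searched on the transcript strand, sequences are from GRCm38 and read 5′ to 3′, and capitals mark the motif. No position within a peak was measured as methylated, so a match describes the sequence only. The sequences of Smad2, Smad4 and Smad7 are not shown here.
Smad1, 3′ UTR, chr8:79339419-79339443, minus strand: actaaaatgcTGACTttcagcagga
Smad5, 5′ UTR, chr13:56723544-56723568, plus strand: tggtatctacTGACTttgattacag
Smad3, 3′ UTR, chr9:63648795-63648819, minus strand: ccatgggcgtGAACAttgtgccgta
Ski, 3′ UTR, chr4:155156932-155156956, minus strand: gacgccatctGGACAcccactctgg
Skil, coding sequence, chr3:31098304-31098328, plus strand: accttcatgtGAACCaaaaatacct
The sites shown lay 2 to 12 nt from the nearest summit of the region, but in Smad5 up to 126 nt from the strongest summit of another list. In Smad6 the strongest summits fell in separate places, the site at their median position lay 78 nt from the nearest summit, and it is not shown. In the strongest region of Smad7 no DRACH motif lay within 25 nt of the strongest summit in any list.

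The lists differed in length, from 8655 summits in shCTR B to 13675 in shMettl14 A, and the median summit held 13 to 16 IP fragments, so single summits carried wide counting error. The number of fragments at a summit (the pileup) and the local background were recovered from the fold enrichment and p-value of each peak. Exons of Mettl14 held 0 summits in all 4 lists, and transcript levels cannot be read from peaks, so the knockdown itself was not checked here. Of 6 smooth muscle marker genes only Myh11 had a summit, in 3 lists, while Acta2, Tagln, Cnn1, Smtn and Myocd had none. Both endothelial markers had summits in all 4 lists, Pecam1 with 24 to 33 fragments and Cdh5 with 17 to 109, and neither macrophage marker (Ptprc, Adgre1) had any. A transcript can be abundant and lack m6A, so these counts do not measure the share of a cell type, and the part of other cell types in the results below was not tested.

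The 10 genes held 30 and 22 summits in shCTR A and B, and 34 and 23 in shMettl14 A and B. Both A lists held more than both B lists. The group means were 26 ± 5.66 in shCTR and 28.5 ± 7.78 in shMettl14 (SD, n = 2), a ratio of 1.10 that lay within the spread of replicates (two-sided exact permutation p = 0.667, where the smallest p that 2 lists against 2 allow is 0.333). The ratio was 1 when each list was cut to the same number of its strongest peaks, 0.950 without shCTR B and 0.885 without shMettl14 A, so it had no stable direction. Over all summits of the lists the ratio was 1.16. Of the 10 genes, 7 had a summit in all 4 lists, against 16.1% of 21606 coding genes. Smad9 had one in 2 lists, Smad4 in 1 list, and Smad2 in none, whereas 25.5% of coding genes had a summit in at least 1 list. Intervals of the 4 lists that shared at least 1 bp were merged into regions, and 18 regions held the summits of these genes. Of these, 14 were found in all 4 lists, against 43.4% of all 11361 regions, and 2 in exactly 1 list, against 29.1%.

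**Figure D1:**
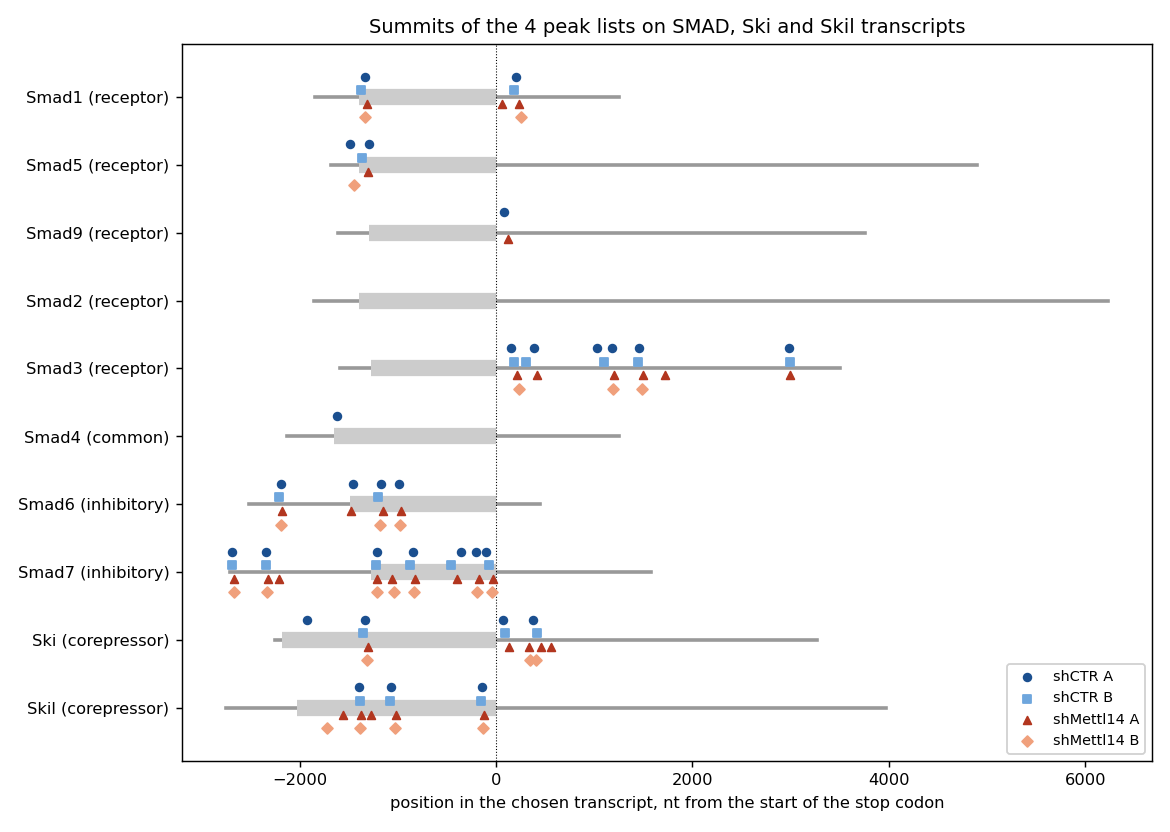
Position of each summit along the chosen transcript of the 10 genes, in nt from the stop codon (dotted line), with the coding sequence as a thick grey bar, UTRs as thin lines and 1 symbol per summit for each of the 4 lists. All summits of Smad3 and Smad9 and 5 of 9 of Smad1 lie past the stop codon, those of Smad6 and Smad7 lie before it, and Smad2 has none.

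Among the receptor SMADs, Smad3, which carries TGF-β signals in smooth muscle, had the most summits, 6, 5, 6 and 3 in shCTR A, shCTR B, shMettl14 A and shMettl14 B, and all 20 lay in its 3′ UTR. They formed 3 regions in exon 9, the last exon. In the middle region (chr9:63648499-63649520, 1028 to 1718 nt past the stop codon) the strongest summit held 35, 55, 43 and 28 fragments. To compare lists of different depth, the fold enrichment of IP over background was turned into its percentile within the list. The strongest summit of this region stood at percentiles 88.7 and 97.1 in shCTR A and B and 98.5 and 89.7 in shMettl14 A and B, so it was high in every list and the groups overlapped. The region nearest to the stop codon (chr9:63649671-63650277, 157 to 413 nt past it) stood at percentiles 67.4, 81.0, 64.8 and 47.2. Both knockdown lists lay below both control lists there, while the difference between shMettl14 A and shCTR A was small beside the control SD of 9.57. The far region (chr9:63647146-63647383) held 23, 19 and 15 fragments in shCTR A, shCTR B and shMettl14 A and was missing from shMettl14 B.

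Smad1, a receptor SMAD of the bone morphogenetic protein branch, had 9 summits in 2 regions, both found in every list. Its 3′ UTR region (chr8:79339310-79339670, 58 to 250 nt past the stop codon) stood at percentiles 89.4, 72.7, 67.7 and 75.4 with 21, 20, 15 and 15 fragments. The control list shCTR A was the highest, and the groups overlapped. The second region lay early in the coding sequence, in exon 2 (chr8:79371838-79372248), at percentiles 67.3, 22.9, 47.0 and 56.8. The 2 control lists were its highest and its lowest value, so the spread between controls was wider than any difference between groups.

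Smad5, close in sequence to Smad1, had a single region at the start codon in exon 2 (chr13:56723430-56723735), where 5 summits fell on both sides of the codon. It was weak in every list, at percentiles 32.3, 26.4, 3.60 and 16.9. Both knockdown lists lay below both controls, but the region rested on 10, 14, 14 and 8 fragments. The 14 fragments of shMettl14 A, at a coding summit (chr13:56723682), stood over a background of 2.71 fragments. The 10 fragments of shCTR A, at a 5′ UTR summit (chr13:56723503), stood over 0.684. A further shCTR A summit close to the shMettl14 A one (chr13:56723691) held 18 fragments over 2.26, at percentile 21.9. The strongest summits compared between lists thus lay at unlike places in the region. Counting error alone gives the 8 fragments of shMettl14 B an exact 95% Poisson interval of 3.45 to 15.8.

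Smad9, also known as Smad8, had 1 region just past the stop codon (chr3:54797494-54797834) in shCTR A and in shMettl14 A, with 11 and 9 fragments. It was thus present in 1 list of each group, both of them the longer list. Smad2, the other TGF-β receptor SMAD, had no summit in any list despite 20.5 DRACH motifs per kb of transcript, close to the median of 20.4 over all coding transcripts. Smad4, the shared partner, had a single summit near its start codon (chr18:73677801-73677958, exon 2), with 16 fragments at percentile 51.5, in shCTR A only. A missing summit says that no peak passed the calling threshold, not that the transcript lacks m6A.

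The inhibitory SMADs had all of their summits in the 5′ UTR or the coding sequence. Smad7, which blocks both branches, had 7, 6, 9 and 7 summits in the 4 lists, in 3 regions found in every list. The region in the coding part of exon 1 (chr18:75368723-75369505) held 87, 81, 67 and 73 fragments, the most of any region of these genes. Its percentiles were 95.6, 97.6, 98.0 and 99.3, both knockdown lists above both controls. With so many fragments the counting error of the pileup was smaller, with an exact 95% Poisson interval of 69.7 to 107 around 87. Backgrounds there were 3.79, 2.81, 2.61 and 1.86 fragments, so this interval does not cover the error of the ratio that was ranked. Pileup and background were both lower in the knockdown lists than in the controls. The region in the 5′ UTR of exon 1 (chr18:75367425-75368084) stood at percentiles 42.0, 29.8, 27.7 and 41.8, and the one before the stop codon in exon 4 (chr18:75393855-75394387) at 40.8, 17.6, 36.1 and 42.4. The groups overlapped in both.

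Smad6, which mainly restrains the bone morphogenetic protein branch, had 4, 2, 4 and 3 summits, in 2 regions of exon 1. The coding region (chr9:64020448-64021140) stood at percentiles 32.0, 46.6, 62.1 and 37.3 with 35, 30, 31 and 22 fragments, and the groups overlapped. The 5′ UTR region (chr9:64021550-64022123) stood at 22.4, 26.3, 15.3 and 21.9 with 21, 21, 17 and 18 fragments. Both knockdown lists lay below both controls there, shMettl14 B by less than the control SD of 2.79. Of the 5 inhibitory regions, 4 lay in exon 1, which is 1855 nt long in Smad6 and 2040 nt in Smad7.

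Ski and Skil carried m6A peaks in every list. Ski had 15 exonic summits, 10 of them in a 3′ UTR region 71 to 559 nt past the stop codon (chr4:155156711-155157341) at percentiles 80.3, 73.5, 86.5 and 77.7 with 53, 39, 43 and 32 fragments. The groups overlapped there. Its region in the coding part of exon 1 (chr4:155221573-155221862) stood at 62.0, 61.3, 73.8 and 78.7, both knockdown lists above both controls. A single further summit in that exon (chr4:155222097-155222313), with 16 fragments at percentile 0.892, was listed in shCTR A only. Skil had its 15 summits in 2 coding regions. The one in exon 2 (chr3:31097464-31098391) stood at 58.5, 71.4, 80.4 and 62.4, with overlapping groups. The one before the stop codon in exon 7 (chr3:31118352-31118651) stood at 69.0, 75.3, 53.1 and 57.7, both knockdown lists below both controls, with 48, 39, 39 and 28 fragments.

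**Figure D2:**
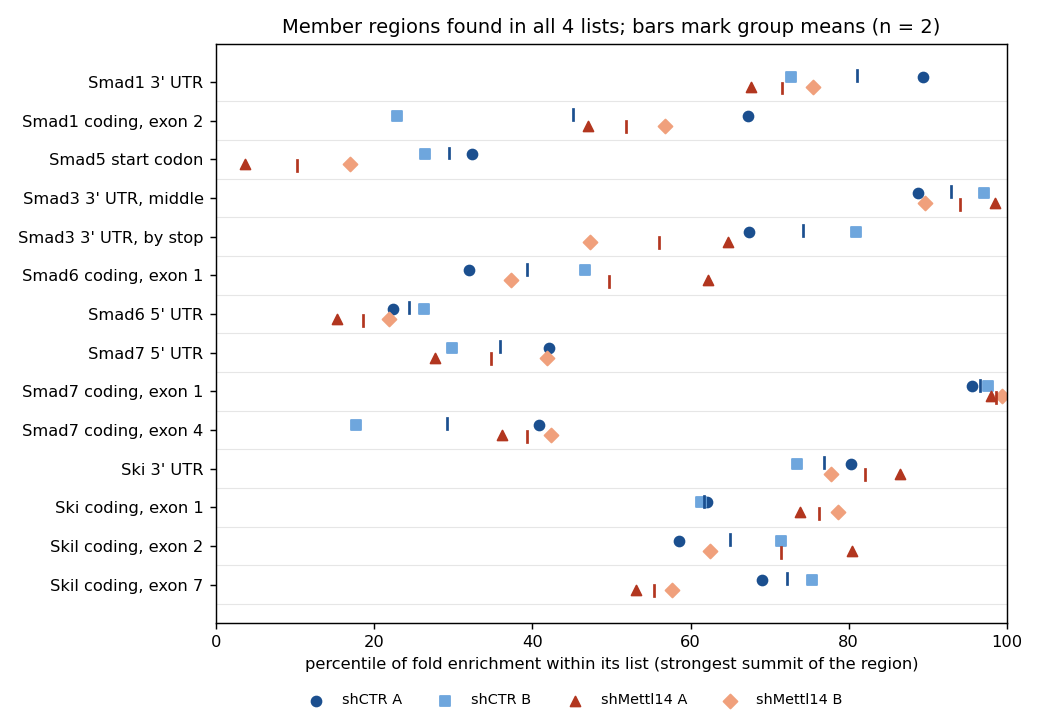
Percentile of fold enrichment within its list (x axis) of the strongest summit in each of the 14 regions found in all 4 lists, with shCTR symbols above and shMettl14 symbols below and a bar at each group mean (n = 2). The Smad7 exon 1 coding region sits at 95.6 to 99.3 in all lists, and the Smad5 region, at 3.60 to 32.3, has the lowest mean in shMettl14, while the Smad6 5′ UTR region has the lowest in shCTR.

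Summit density differed between the inhibitory and the receptor SMADs in every list. Per kb of annotated exon, the pooled inhibitory SMADs had 1.42, 1.04, 1.68 and 1.29 summits in shCTR A, shCTR B, shMettl14 A and shMettl14 B, and the pooled receptor SMADs had 0.330, 0.240, 0.330 and 0.180. The lowest inhibitory value was thus above the highest receptor value. The means over the 4 lists were 1.36 ± 0.269 and 0.270 ± 0.0734 (SD), a difference of 1.09 ± 0.228 that was positive in 4 of 4 lists (0.796 to 1.35). Long intervals can hold several summits, and when each interval was counted once the densities were 0.744 ± 0.124 and 0.195 ± 0.0173 per kb, a difference of 0.549. The comparison is of 2 genes with 5, which are not replicates of a condition, and the lists share the genes, so no test was made.

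The order of the single genes was not a clean division by role. Smad7 had the highest density over the 4 lists, 1.60 ± 0.278 summits per kb (SD), followed by Smad6 with 1.01 ± 0.299, Smad3 with 0.902 ± 0.255 and Ski with 0.674 ± 0.172. Within lists, Smad7 was above Smad6 in 4 of 4 and Smad3 above Ski in 4 of 4, by 0.00195 to 0.363 per kb, while Smad6 was above Smad3 in 3 of 4, with a mean difference of 0.112 ± 0.282 (SD) that did not exceed its spread. Skil followed with 0.387 ± 0.0988 and Smad1 with 0.359 ± 0.0798, a difference that did not exceed its spread either, then Smad5 with 0.168 ± 0.0674, Smad9 with 0.0931 ± 0.108, Smad4 with 0.0673 ± 0.135 and Smad2 with 0. The differences between Smad5 and Smad9, Smad9 and Smad4, and Smad4 and Smad2 did not exceed their spread over the lists. Annotated exons of Smad1 summed to 6262 nt, against 3099 nt in its chosen transcript. For Skil these lengths were 9694 and 6717 nt, and for Ski 5562 and 5522 nt. The places of Smad1, Skil and Ski thus depend on the length used, and the order per kb of chosen transcript is not given. Among the 3475 coding genes with a summit in all 4 lists the median was 0.339 and the middle 50% of genes ran from 0.210 to 0.547, so Smad7, Smad6, Smad3 and Ski lay above that range and Smad5 below it.

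**Figure D3:**
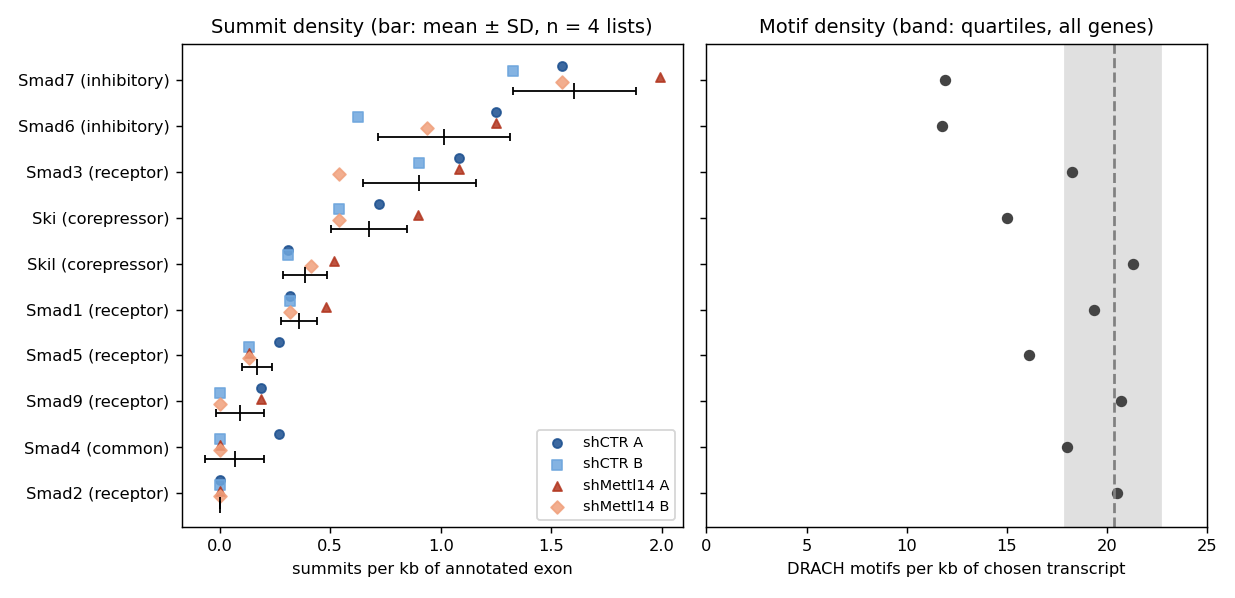
Left, summits per kb of annotated exon for each gene in the 4 lists, with the mean and SD over lists as a black bar below the symbols. Right, DRACH motifs per kb of the chosen transcript for the same genes, with the quartiles (band) and median (dashed line) of all coding transcripts. Smad7 and Smad6 have the highest summit density and, with 11.9 and 11.8 motifs per kb, the lowest motif density.

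Part of what a peak caller finds depends on how many fragments a transcript gives. The background at receptor SMAD summits had a median of 1.10 fragments (0.413 to 2.71) and a median pileup of 15, and at inhibitory SMAD summits a median of 2.95 fragments (1.37 to 7.60) and a median pileup of 27.5. The corepressors were close to the inhibitory SMADs, with medians of 2.54 and 28 fragments. The part of this depth in the difference in summit density was not tested, and more RNA of a transcript cannot be told apart from more methylation per transcript by the number of summits. The median percentile of fold enrichment ran the other way, 51.6 for receptor and 34.2 for inhibitory summits. In the median, the inhibitory SMADs thus had lower ranks of enrichment beside more summits per kb, but the ranks overlapped. The Smad7 exon 1 coding region stood above the receptor median, as did Smad6 coding summits in shMettl14 A (56.6 and 62.1). The receptor Smad5 region was low, at 3.60 to 32.3.

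**Figure D4:**
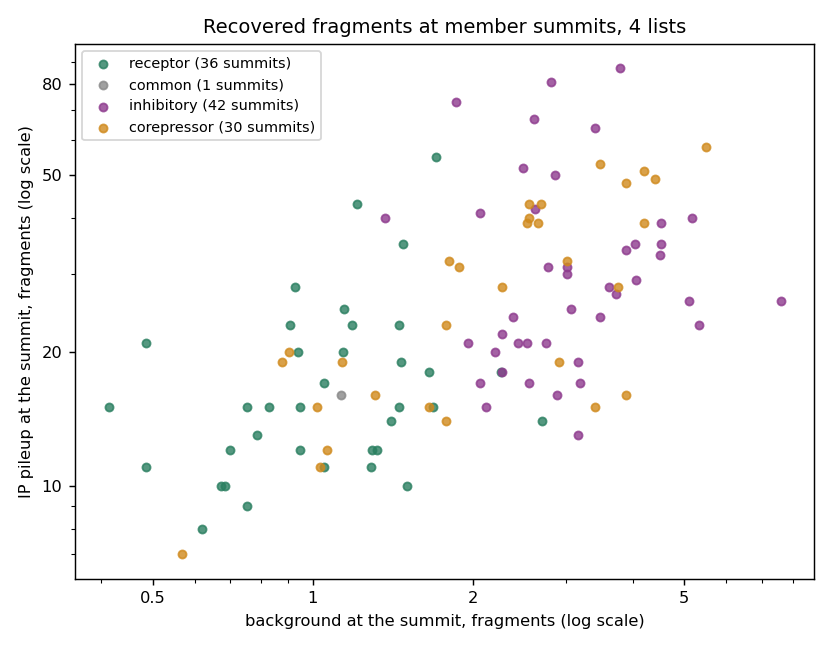
IP pileup against background, both in fragments on log axes, at the 109 summits of the 10 genes in the 4 lists, coloured by role. Receptor SMAD summits sit at lower background (0.413 to 2.71 fragments) than most inhibitory SMAD summits (1.37 to 7.60).

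The roles also differed in where the summits lay in the transcript. Of 36 receptor SMAD summits placed on the chosen transcripts, 27 (75%) lay in the 3′ UTR, 7 in the coding sequence and 2 in the 5′ UTR. Of 42 inhibitory SMAD summits, 29 lay in the coding sequence, 13 (31.0%) in the 5′ UTR and 0 in the 3′ UTR, which allows a share of up to 7.14%, for counting error only and with the same sites counted in several lists. Each list held 4 to 9 receptor and 0 inhibitory summits in the 3′ UTR. Smad3 supplied 20 of the 27 receptor summits there, and over the other receptor SMADs 7 of 16 summits lay in the 3′ UTR, with 0 of 5 in Smad5. The 3′ UTR makes up 69.6% of the length of the receptor SMAD transcripts and 27.8% of the inhibitory ones, and the 5′ UTR 6.45% and 34.0%, so the inhibitory share in the 5′ UTR was close to the share of length and the 0 inhibitory summits in the 3′ UTR were not. Without Smad3 the receptor share in the 3′ UTR was 43.8%, below the 69.8% of length. Of the 3′ UTR summits of Smad3, 13 of 20 lay in the middle and far regions, whereas the Smad1 and Smad9 ones lay within 250 nt of it. Of 30 corepressor summits, 20 lay in the coding sequence and 10 in the 3′ UTR, all 10 in Ski. Over all 34550 exonic summits of the 4 lists, 2.58% lay in the 5′ UTR, 66.1% in the coding sequence and 31.3% in the 3′ UTR.

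Summits near the stop codon, the place where m6A is most often found in mRNA, were not more common in these genes than in all genes. Within 200 nt of the stop codon lay 18.4% ± 4.10 of their summits (SD over 4 lists), against 26.4% of all exonic summits. The 5′ UTR summits lay 17 to 491 nt from the transcript start in Smad7, 313 to 343 nt in Smad6 and 196 to 237 nt in Smad5. A peak within a fragment length of the transcript start cannot be told apart here from the related mark m6Am next to the cap, which the anti-m6A antibody also binds, and this applies to the first summits of Smad7 and, with fragments of about 200 nt, to the Smad5 summit at 196 nt.

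DRACH motifs were sparser in the inhibitory SMADs. Smad6 held 11.8 and Smad7 11.9 motifs per kb of transcript, and 2.03% of coding transcripts had as few as Smad7 or fewer. The other 8 genes held 15.0 to 21.3 per kb, against a median of 20.4 with the middle 50% from 17.9 to 22.7. Smad6 and Smad7 were also rich in G and C, at 60.8% and 56.9% against a median of 49.4%. A DRACH motif lay within 50 nt of 81.6% ± 6.12 of the summits of the 10 genes (SD over 4 lists), against 95.7% of all exonic summits. The shortfall lay in the inhibitory SMADs, with 8 of 11, 6 of 8, 7 of 13 and 5 of 10 summits in the 4 lists, whereas 33 of 36 receptor and 29 of 30 corepressor summits had one. Within 100 nt every one of the 109 summits had a DRACH motif, as did 99.6% of all exonic summits, so that window does not separate them. GGACT, the form of DRACH preferred by the enzyme, lay within 50 nt of 22.1% ± 7.71 of the summits, against 21.6% of all.

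Whether knockdown changed the standing of these regions was tested with limma on the normal score of each region's rank within its list, over the 4929 regions found in all 4 lists. No region of the 10 genes passed an adjusted p of 0.05 (0 of 14, against 0.00% of all regions), and none passed an unadjusted p of 0.05 (0 of 14, against 4.93%, or 243 regions, 2.52% with a lower and 2.41% with a higher rank in shMettl14). Adjusted p ran from 0.993 to 0.999. The rank change was below 0 in 6 regions, against 49.9% of all regions, and above 0 in 8, with a median of 0.17 against 0.00 over all regions. Fisher's exact test on fragments summed per group called 0 of the 14 and 0.00% of all regions, adjusted or not. It rested on backgrounds of a few fragments and took fragments, not lists, as units. With 0 unadjusted calls among 4929 regions it could hardly call any region, so its 0 of 14 is not informative. A shift shared by all regions leaves ranks in place, so these tests could not show a uniform loss of m6A.

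The Smad5 start-codon region had the lowest rank change, -0.79 ± 0.52 normal-score units (SE, limma, adjusted p = 0.993). The Smad3 region by the stop codon followed with -0.59 ± 0.50, then the Skil exon 7 region with -0.53 ± 0.50 and the Smad1 3′ UTR region with -0.46 ± 0.51. Leaving out shMettl14 A took the Smad5 change to -0.22, above the -0.68 of that Smad3 region, and leaving out shMettl14 B took it to -1.36. Without shCTR A the Smad3 region was also the lower one, at -0.93 against -0.79. On the other side were the Ski exon 1 region with 0.44 ± 0.50 and the Smad7 exon 1 coding region with 0.42 ± 0.50. The changes of the receptor SMADs ran from -0.79 to 0.18 and those of the inhibitory SMADs from -0.17 to 0.42, ranges that overlap. The percentiles of the groups did not overlap in 4 regions that were lower in shMettl14 (Smad5, the Smad3 region by the stop codon, the Smad6 5′ UTR and Skil exon 7) and in 2 that were higher (Smad7 exon 1 coding and Ski exon 1), where 14.3% and 17.3% of all regions did so.

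**Figure D5:**
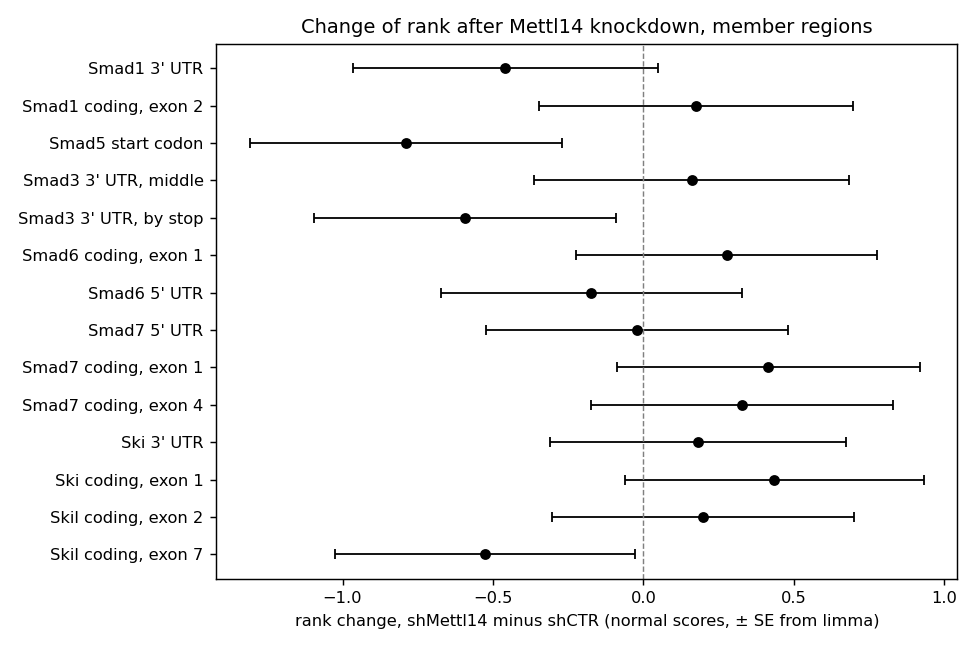
Rank change of the 14 regions, shMettl14 minus shCTR, in normal-score units with its SE from limma (n = 2 lists per group). The changes run from -0.79 to 0.44, and none passed the adjusted threshold.

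None of the 18 exonic regions was found in both control lists and neither knockdown list, or the other way round, against 1.71% and 1.79% of all regions. The 14 regions also overlapped both interval files in which the authors deposited the overlap of the replicates, 1 file per hairpin. The far Smad3 region overlapped the shCTR file only. Leaving out shMettl14 A made that region control-only, and leaving out shCTR B did so for the single-list summits of Smad4 and Ski, with 16 fragments each. Among summits with −log10 q of at least 5, the Smad5 region remained only in the control lists.

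Taking the mean percentile over all summits of a gene, 8 genes had a value in both groups, 5 lower and 3 higher in shMettl14. By this mean Ski differed most, with 42.5 ± 8.97 in shCTR and 71.6 ± 7.25 in shMettl14 (SD, n = 2), a difference of 29.1 percentile points. Weak side summits entered its control means, at percentiles 1.39 and 0.892 in shCTR A and 11.7 in shCTR B. In shMettl14 A its 3′ UTR region was split into summits at 82.7, 86.5, 59.1 and 30.5. By strongest summit, its 3′ UTR and exon 1 coding regions differed by 5.20 and 14.5 points. Smad9 differed by -27.6, with 1 list per group, Smad5 by -16.5 and Skil by -10.9. Leaving out 1 list gave -23.2 (without shMettl14 B) to -9.87 (without shMettl14 A) for Smad5, and for Skil -18.5 without shCTR A, -16.9 without shMettl14 A, -4.84 without shMettl14 B and -3.28 without shCTR B. Smad1 differed by -6.44, Smad3 by -2.51, Smad6 by 0.419 and Smad7 by 5.24, each less than the larger SD of its groups, and each of these 4 changed sign when 1 list was left out. With only the strongest summit of each list the order changed, with -27.6 for Smad9, -19.1 for Smad5, 10.4 for Smad6, -9.47 for Smad1, 5.65 for Ski, 2.05 for Smad7, 1.18 for Smad3 and -0.778 for Skil. With the percentile of recovered pileup in place of fold enrichment it was 15.7 for Ski, -9.34 for Skil, -5.92 for Smad1, -5.84 for Smad9, -5.77 for Smad5, -5.28 for Smad3, -3.98 for Smad6 and 0.247 for Smad7.

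Of 39 other genes of the pathway, 29 had a summit in at least 1 list and 21 in all 4 lists, against 25.5% and 16.1% of coding genes. By subgroup the counts below are of genes with a summit in at least 1 list. Nuclear partners and corepressors carried the most, with summits in 13 of 15 genes, among them the acetyltransferases Crebbp and Ep300 with 28 summits each. Ubiquitin ligases and other turnover factors had summits in 5 of 9 genes, and Smurf1, Smurf2, Nedd4l and Wwp1, ligases that act with Smad7, had none. Anchors and membrane-side inhibitors had summits in 4 of 5 genes and target genes in 7 of 10. Of the 29 regions tested, 0 passed an adjusted p of 0.05 and 1 passed it unadjusted, against 4.93% of all regions, with 16 rank changes below 0 and 13 above.

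That region lay in Bambi, a decoy receptor that lacks the kinase domain. It stood at percentiles 84.2 and 88.3 in shCTR A and B and 33.2 and 44.8 in shMettl14 A and B, both knockdown lists below both controls, with 13, 18, 9 and 9 fragments. Its rank change was -1.53 ± 0.50 (limma, unadjusted p = 0.00563, adjusted p = 0.796). Runx1, a DNA-binding partner of SMADs, stood at 90.2, 52.3, 54.8 and 30.7, with overlapping groups and a rank change of -0.97 ± 0.53. Zeb1, a SMAD-binding repressor, had a rank change of 0.65 ± 0.50 in its strongest region. Its other tested regions had changes of -0.32 ± 0.52 and 0.087 ± 0.50. Zfyve16, a FYVE-domain anchor, had a rank change of -0.60 ± 0.50. With 0 calls among all 4929 regions, these 4 genes are given by their unadjusted order and not as changes.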

How the data were processed

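Reads were aligned by the authors to mm10 with STAR, reduced to uniquely mapped reads with SAMtools, and peaks of each IP sample were called against its input with MACS2, per the labels and methods. Versions and options of these tools are not given in the sources used here. Each of the 4 deposited lists gives intervals, summits, fold enrichment (a ratio of IP to local background after 1 is added to each), and −log10 of the p-value and q-value. The smallest deposited −log10 q was 2.01 to 2 decimals in each list. The 2 deposited overlap files were used for presence only. The input samples have no peak list of their own, and the lists give no total read numbers.

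Pileup and background were solved from fold enrichment and p, and a whole-number pileup matched both within 0.001 of the deposited −log10 p in 100% of summits. Intervals sharing at least 1 bp were merged (BEDTools 2.31.1 gave the same regions). For regions in all 4 lists the highest fold enrichment was ranked within its list, turned into normal scores and compared with limma 3.58.1 (R 4.3.3, lmFit and eBayes, two-sided, Benjamini-Hochberg threshold 0.05), with no replicate block. One complete protein-coding transcript per gene, with the longest coding sequence, gave positions and motifs. Scripts ran under scipy 1.17.1, pandas 2.3.3, numpy 2.4.6 and Python 3.11.15 and were tested on simulated data.

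Groups come from sample titles. The genes, the pathway list and the marker lists were chosen with earlier results of these data known. The 10 genes and every region found in all 4 lists were named, and of the pathway list the 5 genes with the smallest unadjusted p, of which 1 is not reported here. Alternatives covered the scale, the peak threshold, the overlap, the windows, the block and leaving out each replicate.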

Additional observations from a re-analysis of the deposited data

How the results depend on the processing

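The 14 regions had 0 calls under each alternative run, and over all 4929 regions 0 were called except without shMettl14 A, which gave 3, none of them in the 10 genes (leaving out 1 list in turn gave 0 to 3). Labels do not say that replicate letters pair samples, and deviations of same-lettered lists correlated weakly (r = 0.0795 over 4929 regions). With the letter as a replicate block 0 regions were called. The ratio of summit numbers ran from 0.885 to 1.31 when 1 list was left out. Control-only regions of the 10 genes numbered 1 at −log10 q of at least 5, and 0 to 2 when 1 list was left out. Clustering summits within 100 nt gave 1 knockdown-only site, a part of the Smad7 exon 1 coding region with 41 and 42 fragments. The intervals of both shCTR lists span that site, with summits on either side, so it was a further summit inside a peak found in every list. Counting intervals once took the inhibitory minus receptor density to 0.549 per kb. Summits near the stop codon made up 7.33% within 100 nt and 29.0% within 400 nt, DRACH 63.6% within 25 nt and 100% within 100 nt, and GGACT 12.1% within 25 nt. The Smad5 region had no value at −log10 q of at least 5.

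Several rank changes changed sign, up to the 0.33 of the Smad7 exon 4 region, while the smaller 0.18 of the Ski 3′ UTR region did not. For the Smad6 coding region the value was -0.018 with ranks of recovered pileup and -0.024 with clustered summits. The Smad7 5′ UTR region took 0.029 in Fisher's test, as a log2 odds ratio, and the Smad7 exon 4 region -0.072 with pileup ranks. Leaving out 1 list gave -0.36 to 0.71 for the Smad1 coding region, -0.29 to 0.61 for the middle Smad3 region, -0.42 to 0.078 for the Smad6 5′ UTR, -0.0062 to 0.56 for the Smad6 coding region, -0.35 to 0.31 for the Smad7 5′ UTR and -0.094 to 0.49 for Skil exon 2. Without a sign change, it gave -1.36 to -0.22 for Smad5, -0.75 to -0.17 for the Smad1 3′ UTR, -0.93 to -0.25 for the Smad3 region by the stop codon, -0.73 to -0.32 for Skil exon 7, 0.12 to 0.71 for the Smad7 exon 1 coding region, 0.061 to 0.59 for Smad7 exon 4, 0.21 to 0.66 for Ski exon 1 and 0.12 to 0.25 for the Ski 3′ UTR. The mean percentile difference ran from -21.7 to 8.84 for Smad1, -9.29 to 4.27 for Smad3, -7.86 to 8.69 for Smad6 and -2.41 to 12.9 for Smad7. These fits assume that the lone list of a group varies like the other group. The cause was not tested. The median summit held 13 to 16 fragments, and the part of depth in these shifts was not tested.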

Other observations

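Ski was the only one of the 10 genes with summits in introns. There were 6, in 2 regions. One (chr4:155160670-155161096) was found in both shCTR lists, with 27 fragments in shCTR A and 15 and 13 at 2 summits in shCTR B, and in neither shMettl14 list, as were 1.71% of all regions. The other held 10 fragments in shCTR A, 11 in shMettl14 A and 10 in shMettl14 B. Intronic summits entered no comparison above, and no test was made of them.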
